A study of Homo sapiens with 6 samples.

Results

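The integrin and laminin genes were 38 of the 58174 genes in the table of A549 transcripts, and 38 of its 19799 protein-coding genes. They were taken by symbol alone, as the protein-coding genes named ITGA, ITGB or LAM with a subunit letter or number. No measured value decided which gene of these families entered, but the families were chosen with earlier results of these data known. They comprised 18 integrin α chains, 8 integrin β chains and 12 laminin chains. A549 is an established human line from a lung adenocarcinoma. Parental A549 cells (Ctrl, 3 libraries) were compared with A549 cells carrying a CRISPR/Cas9 deletion of the MIR21 locus (MIR21-KO, 3 libraries), to see which transcripts differ once the miRNA is lost. Both groups were grown in DMEM with serum and harvested 48 h after seeding, and the labels name no other agent for either. The MIR21-KO cells came from single sorted cells and the Ctrl cells from the parental population, and how many clones stand behind the 3 libraries is not stated, so that a property of a clone and an effect of the deletion cannot be told apart. The study describes the samples as independent, biological replicates, but not whether they were separate cultures or clones, so p-values measure the spread between these libraries.

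Integrins are the receptors by which cells hold on to the matrix. Each is a pair of one α and one β chain, both spanning the membrane, and the pair decides which matrix protein is bound and which signal follows. Laminins are cross-shaped trimers of an α, a β and a γ chain, the core of the basement membrane on which epithelial cells sit. The trimer named laminin-332 anchors epithelia through the integrin α6β4 of hemidesmosomes. miR-21-5p, the product of MIR21, is an abundant miRNA of many tumors, and miRNAs lower the mRNAs that carry a match to their seed in the 3′ UTR.

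The miRNA and the matches to it that lie in members expressed in these cells are shown first, as the letters through which the miRNA could pair with these mRNAs. The mature miR-21-5p (RefSeq, chr17:59841273-59841294, plus strand, GRCh38.p14) is given with its seed, bases 2 to 8, in capitals.
hsa-miR-21-5p: uAGCUUAUcagacugauguuga
Each of the following windows is the 30 bases around a match in the longest annotated 3′ UTR (GENCODE 29, GRCh38), 5′ to 3′ on the strand of the gene, with the letters that match in capitals. ITGA11 holds the 8mer ATAAGCTA (chr15:68296679-68296708, minus strand), which pairs with the whole seed and has an A after it.
ITGA11: catatttaaagtaaATAAGCTAcaactatt
ITGB3 (chr17:47310427-47310456, plus strand) and ITGA2 (chr5:53091777-53091806, plus strand) hold the heptamer ATAAGCT without that A.
ITGB3: tgtgatgtgtcctgATAAGCTgagctcctt
ITGA2: aacaagtaagaaaaATAAGCTcgagtgaat
LAMA3 (chr18:23955927-23955956, plus strand) holds the other heptamer, TAAGCTA.
LAMA3: taaactacatgactcTAAGCTAtgtgcttt

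Within their 3′ UTRs the match of ITGB3 starts 237 bases after the stop codon, in a UTR of 1612 bases, and that of ITGA11 starts 6365 bases after it, near the end of a UTR of 6526 bases. Of the 38 members, 8 had a match of one of these 3 kinds, and of the 21 members expressed well enough to be tested, 4 had one. Among 11644 tested protein-coding genes with an annotated 3′ UTR the share was 14.4% for any of the 3 kinds, 9.88% for ATAAGCT with or without the A, and 2.87% for the 8mer. A match is only a run of letters. Of the genes with the 8mer (334), 11.1% were called higher by the test described below, of those with ATAAGCT with or without the A (1151) 9.3%, and of the 9964 genes with none of the 3 kinds 9.1%.

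Values are FPKM, that is fragments scaled by gene length and library size, so levels of different genes can be compared roughly. The length is a single fixed value per gene, and the libraries differed in their trend with gene length, as given further on. The libraries held 10631667 to 14345209 reads, and 1 read over 1 kb of gene equalled between 0.0731 and 0.0930 FPKM. The test was limma on log2(FPKM + 0.1), run on genes whose mean over the 6 libraries reached 0.5 FPKM, and a gene was called when its Benjamini-Hochberg adjusted p over all 16006 genes tested (FDR) was under 0.01. Fold changes below are on that scale, MIR21-KO over Ctrl, and understate the change of genes near 0; they are given ± SE, group means ± SD over 3 libraries, and single values in the order of replicates 1 to 3. MIR21 was listed at 0 FPKM in all 6 libraries. A mature miRNA has no polyA tail, and the deletion could not be checked from these values. The study itself reports, from genomic PCR and northern blots, a homozygous deletion and the loss of miR-21-5p in A549 cells. VMP1, the gene that hosts MIR21, had 70.7, 76.8 and 77.8 FPKM in Ctrl and 134.6, 144.5 and 148.5 in MIR21-KO. The 5 epithelial markers were detected in every library and summed to 1194 to 1288 FPKM in Ctrl and 775.9 to 1106 in MIR21-KO, with group means of 483.8 and 414.2 FPKM for KRT8 and 88.3 and 109.2 for KRT19. Most of the lower sum lay in KRT18, the most abundant of them, which had 673.4 ± 25.3 FPKM in Ctrl and 422.1 ± 82.2 in MIR21-KO, with no overlap but short of the threshold (log2 fold change -0.69, FDR = 0.0153, called in 6 of 16 alternatives). CDH1 fell (log2 fold change -1.48, FDR = 0.000175), and EPCAM averaged 1.19 and 0.695 FPKM. Of 9 leukocyte markers 7 stayed under 0.5 FPKM in every library, CD14 and CORO1A being the others, and of 4 endothelial markers all did, with sums of at most 0.132 FPKM. The summed level of 5 fibroblast markers was 4.27 to 4.75 FPKM in Ctrl and 8.59 to 9.78 in MIR21-KO. Nearly all of that difference lay in THY1 (2.28 against 7.15 FPKM on average, FDR = 0.00059), whereas LUM had 2.11 and 1.88 FPKM with overlapping groups (log2 fold change -0.19, FDR = 0.506), and PDGFRA, PDGFRB and DCN had at most 13, 15 and 3 reads a library. The part of these markers in the results below was not tested. In bulk RNA, fewer cells with a transcript and less of it in each cell cannot be told apart.

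MIR21-KO cells carried far more ITGB3 and ITGA11 mRNA than parental cells. Of the 21 members tested, 6 were called higher (ITGB3, ITGA11, LAMB2, ITGA3, LAMB1 and ITGA5) and 2 lower, ITGB4 among them. That is 28.6% higher and 9.52% lower, beside 7.66% and 8.38% of all tested genes and 9.1% and 10.6% of the 11719 tested protein-coding genes. Groups did not overlap in 15 of the 21 members (71.4%), beside 48.1% of all tested genes and 55.2% of the tested protein-coding genes. The median log2 fold change was 0.31 over the members and -0.02 over all tested genes. The other 17 members lay under the filter, 6 of them leukocyte chains, and are accounted for further on. ITGB3 and ITGA11 were called under each of 16 alternative settings, whereas ITGA3, ITGA5, ITGB4, LAMB1 and LAMB2 lost their calls when single libraries were left out. Without any 1 of the Ctrl libraries, or without MIR21-KO replicate 2, only 2 members were called higher, ITGB3 and ITGA11; the number called lower was then 1 or 2, and 5 without MIR21-KO replicate 3.

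**Figure D1:**
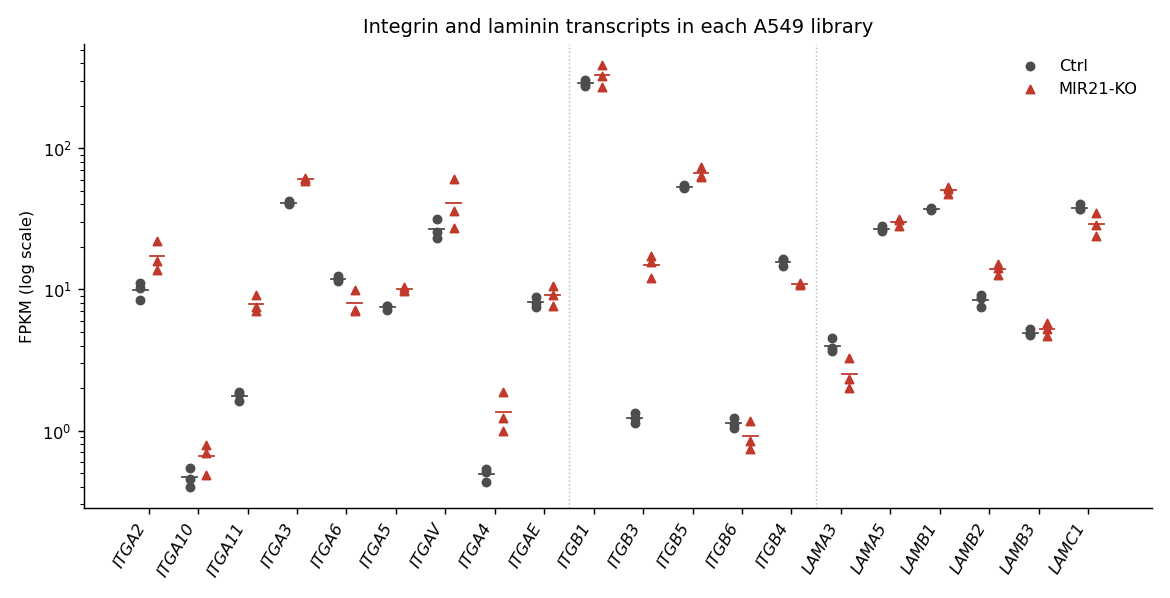
FPKM of 20 of the 21 tested members (log axis) in the 3 Ctrl libraries (grey circles) and the 3 MIR21-KO libraries (red triangles), with a line at each group mean; dotted lines divide integrin α, integrin β and laminin genes. ITGB3 moves from about the level of ITGB6 to above that of ITGB4, while ITGB1 stays the most abundant member in every library.

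**Figure D2:**
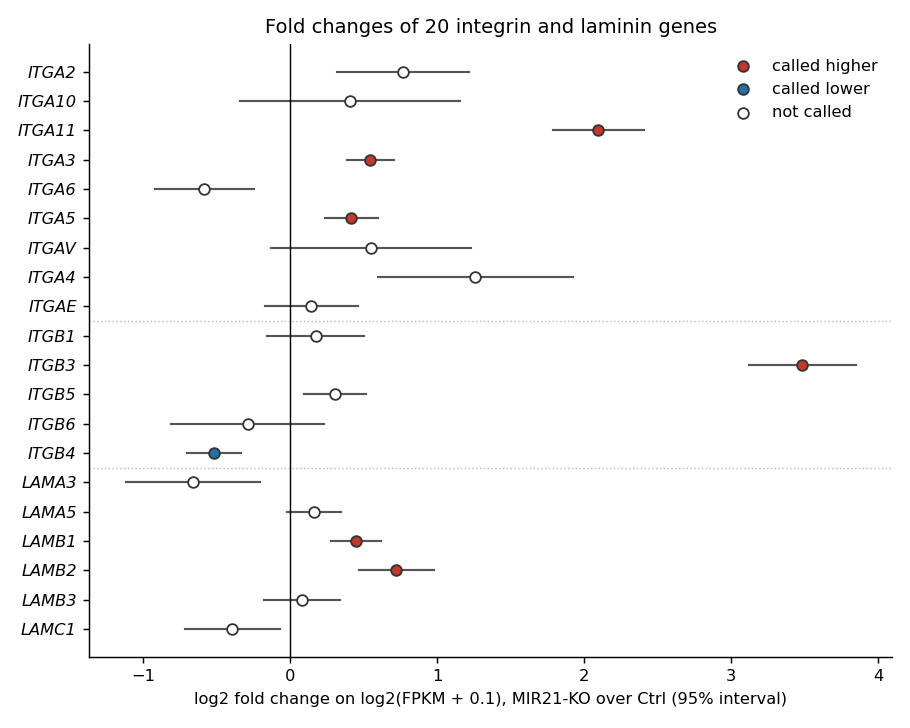
Log2 fold changes of 20 of the 21 tested members, MIR21-KO over Ctrl on log2(FPKM + 0.1), with 95% intervals from limma; filled points passed an FDR of 0.01. Of those shown, the intervals of ITGB3 (3.12 to 3.85) and ITGA11 (1.79 to 2.41) lie farthest from 0.

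The β chains were considered first, since they set which family an integrin belongs to. ITGB1, the partner of most α chains, was the most abundant member in both groups, with 304.5, 276.7 and 287.5 FPKM in Ctrl and 273.6, 326.5 and 389.1 in MIR21-KO. The groups overlapped, and the log2 fold change of 0.17 ± 0.139 (SE) had an FDR of 0.380. ITGB1 alone held 47.6% ± 0.455 of the summed FPKM of all members in Ctrl and 45.5% ± 2.72 in the deleted cells (SD, 3 libraries each). Its level is uncertain in one respect, because its processed pseudogene ITGB1P1 has 609 bases in the table and was listed at 155.7 to 194.6 FPKM, and how reads shared by the pair were counted is not stated.

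ITGB3, the β chain of the vitronectin and fibronectin receptor αVβ3, rose from 1.34, 1.23 and 1.13 FPKM in Ctrl to 12.0, 15.5 and 17.3 in MIR21-KO. Every MIR21-KO library lay far above every Ctrl library. The group means were 1.23 ± 0.105 and 14.9 ± 2.67 FPKM (SD, n = 3 each), a ratio of 12.1, and the log2 fold change was 3.48 ± 0.153 (SE; FDR = 4.9e-05). It rested on 58 to 985 reads a library. ITGB3 (ENSG00000259207, chromosome 17, 47253846 to 47311816, plus strand) is overlapped on its own strand by a second protein-coding model (ENSG00000259753), which was listed at 0 reads in each library, and on the other strand by THCAT158, which had 2 to 8 reads.

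The other β chains that pair with αV did not pass the test. ITGB5, a broadly expressed vitronectin receptor chain, was the second most abundant member, with 53.6, 52.2 and 55.2 FPKM in Ctrl and 74.0, 63.2 and 62.4 in MIR21-KO. All 3 MIR21-KO values lay above the Ctrl values, yet the log2 fold change of 0.31 ± 0.089 missed the threshold (FDR = 0.0391). ITGB6, a chain of epithelia whose αV pair activates latent TGFβ, stayed near 1 FPKM in both groups (log2 fold change -0.29, FDR = 0.351), and ITGB8 had 9 to 24 reads a library. As a share of the summed FPKM of these 4 β chains, ITGB3 made up 2.39%, 2.25% and 1.96% in Ctrl and 13.9%, 19.5% and 21.3% in MIR21-KO, and ITGB5 95.7% ± 0.104 and 80.6% ± 4.18. Among these 4 chains ITGB5 thus remained the most abundant by transcript in every library. ITGB1, which also pairs with αV, is not in this sum and was more abundant than ITGB5 in every library. The sum over the 4 chains was 56.1 ± 1.60 FPKM in Ctrl and 82.5 ± 3.83 in MIR21-KO.

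ITGB4, which pairs with α6 only and links laminin-332 to keratin filaments, was lower in MIR21-KO cells. It had 16.2, 14.6 and 16.5 FPKM in Ctrl and 11.1, 10.7 and 11.0 in MIR21-KO. The MIR21-KO libraries lay close together and all below Ctrl, and the log2 fold change was -0.52 ± 0.077 (FDR = 0.00352). The call was lost without Ctrl replicate 1 or 3 and without MIR21-KO replicate 2, with FDRs of up to 0.0256 over all settings. Part of the gene (ENSG00000132470, chromosome 17, 75721328 to 75757818, plus strand) overlaps GALK1 on the other strand. The leukocyte chains ITGB2 and ITGB7 lay under the filter, with 15 to 41 and 3 to 21 reads a library.

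Among α chains that bind collagen, ITGA11, known from fibroblasts, showed the largest change. It had 1.82, 1.61 and 1.86 FPKM in Ctrl and 7.07, 7.52 and 9.11 in MIR21-KO. No MIR21-KO library came near the Ctrl range, and the log2 fold change was 2.10 ± 0.130 (FDR = 0.000145), a ratio of means of 4.48. ITGA11 (ENSG00000137809, chromosome 15, 68296533 to 68432162, minus strand) overlaps no other annotated gene, and it had 188 to 1284 reads a library. ITGA2, the collagen receptor of epithelia and platelets, had 11.2, 8.46 and 10.2 FPKM in Ctrl and 13.7, 15.8 and 21.9 in MIR21-KO. All MIR21-KO values were higher, but they spread widely, and the log2 fold change of 0.76 ± 0.188 did not pass (FDR = 0.0225). ITGA10 was close to the filter, with 0.466 ± 0.0735 and 0.657 ± 0.154 FPKM (FDR = 0.360), and ITGA1 lay under it with 15 to 93 reads. ITGA11 made up 13.3%, 15.2% and 14.6% of the summed FPKM of the 4 collagen-binding chains in Ctrl and 32.8%, 30.8% and 28.4% in MIR21-KO, and the sum itself went from 12.3 ± 1.55 to 26.0 ± 5.48 FPKM. ITGA2 was the more abundant of the pair in all 6 libraries.

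Of the α chains that bind laminin, ITGA3 and ITGA6 were tested and ITGA3 passed. ITGA3, whose pair with β1 is the common laminin receptor of lung epithelium, rose from 42.5, 40.3 and 41.1 FPKM in Ctrl to 61.7, 60.8 and 58.4 in MIR21-KO. These values were tight in both groups, and the log2 fold change of 0.54 ± 0.067 passed (FDR = 0.00171). Without any 1 of the Ctrl libraries or without MIR21-KO replicate 2 it did not, and the highest FDR over all settings was 0.0214. ITGA3 (ENSG00000005884, chromosome 17, 50055968 to 50090481, plus strand) overlaps no other annotated gene. ITGA6, the α chain of hemidesmosomes, had 12.5, 11.8 and 11.5 FPKM in Ctrl and 7.17, 7.03 and 9.91 in MIR21-KO. All MIR21-KO values were below Ctrl, with replicate 3 the nearest, and the log2 fold change was -0.58 ± 0.141 (FDR = 0.0214, and 0.00103 without that library). ITGA6 therefore held 22.7%, 22.7% and 21.9% of the FPKM summed over ITGA3 and ITGA6 in Ctrl and 10.4%, 10.4% and 14.5% in MIR21-KO. ITGA7, the muscle chain of this class, had 10 to 32 reads a library.

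**Figure D3:**
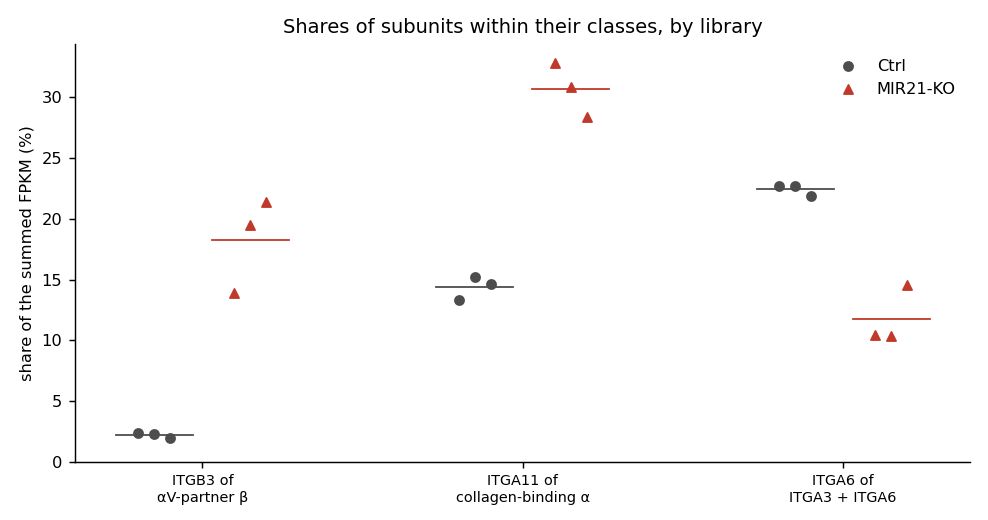
Share (%) of a subunit in the summed FPKM of its class, for each Ctrl (grey circles) and MIR21-KO library (red triangles), with lines at group means. The groups do not overlap in any of the 3 shares; those of ITGB3 and ITGA11 are higher in MIR21-KO and that of ITGA6 lower.

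Chains that recognise the RGD motif of fibronectin and vitronectin were next. ITGA5, the fibronectin receptor chain, had 7.61, 7.15 and 7.65 FPKM in Ctrl and 9.84, 10.5 and 9.71 in MIR21-KO. The groups were apart and the log2 fold change was 0.42 ± 0.076 (FDR = 0.00761). This was the call nearest the threshold, it was lost without any library other than MIR21-KO replicate 3, and its FDR reached 0.0530. ITGA5 (ENSG00000161638) lies on chromosome 12, 54395261 to 54419460, minus strand, across from antisense transcripts. ITGAV, the only α partner of β3 that is expressed here (ITGA2B, the platelet chain, had 6 to 18 reads a library), had 31.4, 23.3 and 25.7 FPKM in Ctrl and 27.1, 36.0 and 60.8 in MIR21-KO. The groups overlapped, and the MIR21-KO libraries differed widely among themselves, and the log2 fold change of 0.55 ± 0.286 was not distinguishable from 0 (95% interval -0.13 to 1.23, FDR = 0.187). ITGA8 had no read in any library.

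ITGA4, a receptor chain for VCAM1 and fibronectin best known from leukocytes, was scarce, with 0.507, 0.530 and 0.435 FPKM in Ctrl and 0.985, 1.22 and 1.86 in MIR21-KO. Each MIR21-KO value was higher, but the log2 fold change of 1.26 ± 0.278 did not pass (FDR = 0.0149). ITGA4 was called in 3 of 15 alternatives, with FDRs of up to 0.0537, and rested on 45 to 191 reads a library. Its Ctrl mean of 0.491 FPKM was under the limit of 0.5, so it entered the test through its MIR21-KO values. ITGAE, the partner of β7 on intraepithelial lymphocytes, had 8.16 ± 0.661 FPKM in Ctrl and 9.09 ± 1.45 in MIR21-KO (FDR = 0.443). Its partner ITGB7 was under the filter, and ITGAE overlaps HASPIN on the other strand. ITGAX, a complement receptor chain of myeloid cells, had 8 to 22 reads in Ctrl and 55 to 85 in MIR21-KO, that is 0.158 ± 0.0693 and 0.748 ± 0.142 FPKM. ITGAM, its relative, had 34 to 63 reads in Ctrl and 10 to 23 in MIR21-KO. The groups did not overlap in either gene. Neither was tested in the filtered set, and without the filter their FDRs were 0.0147 and 0.0589. The leukocyte marker PTPRC had at most 2 reads in any library, and CD3E, CD3D and MS4A1 had none.

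Laminin chains summed to 137.0 ± 2.26 FPKM in Ctrl and 140.4 ± 9.47 in MIR21-KO, a difference within the spread of the MIR21-KO libraries. LAMA3, the α chain of laminin-332, had 4.50, 3.83 and 3.63 FPKM in Ctrl and 2.01, 2.31 and 3.24 in MIR21-KO, which did not overlap but missed the threshold (log2 fold change -0.66 ± 0.191, FDR = 0.0390). LAMB3, its β chain, had 4.83, 4.74 and 5.22 FPKM in Ctrl and 5.76, 5.26 and 4.65 in MIR21-KO, so that the groups overlapped (log2 fold change 0.08 ± 0.109, FDR = 0.621, 95% interval -0.18 to 0.34).

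The chains of the more broadly expressed laminins followed. LAMB1 had 36.8, 37.5 and 37.0 FPKM in Ctrl and 47.4, 51.5 and 53.2 in MIR21-KO. Its Ctrl values were the most even of all tested members, the groups were far apart, and the log2 fold change was 0.45 ± 0.072 (FDR = 0.00459). LAMB2, the β chain of kidney and synaptic basement membranes, had 7.53, 8.70 and 9.13 FPKM in Ctrl and 15.2, 14.2 and 12.6 in MIR21-KO. No value overlapped, and the log2 fold change was 0.72 ± 0.108 (FDR = 0.00362). Both calls were lost without any 1 of the Ctrl libraries or without MIR21-KO replicate 2, with FDRs of up to 0.0345 for LAMB1 and 0.0246 for LAMB2. LAMB1 (ENSG00000091136, chromosome 7, 107923799 to 108003255, minus strand) overlaps DLD on the other strand, and LAMB2 (ENSG00000172037, chromosome 3, 49121114 to 49133118, minus strand) overlaps no gene.

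LAMC1, the γ chain shared by most laminins, had 40.0, 37.2 and 36.9 FPKM in Ctrl and 24.1, 28.8 and 34.9 in MIR21-KO. The values did not overlap, but MIR21-KO replicate 3 was close to Ctrl, and the log2 fold change of -0.39 ± 0.136 did not pass (FDR = 0.0684, and 0.00716 without that library). LAMA5, the α chain of adult epithelial laminins, had 26.9 ± 1.09 FPKM in Ctrl and 30.1 ± 1.85 in MIR21-KO (log2 fold change 0.16 ± 0.076, FDR = 0.152). LAMA1, LAMA2, LAMA4, LAMB4 and LAMC3 lay under the filter, with at most 1, 14, 22, 12 and 44 reads a library. LAMA4, a chain of vessel walls, had 2 reads in each Ctrl library and 7 to 22 in MIR21-KO. Of the 17 members under the filter the ones not named so far were ITGA9, ITGAD and ITGAL, each with at most 6 reads in a library.

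The spread among the MIR21-KO libraries was wider than among Ctrl libraries for most of these genes, as it was for most genes. On the log2 scale the SD between MIR21-KO libraries exceeded that between Ctrl libraries in 19 of the 21 tested members (90.5%), in 69.5% of all tested genes and in 77.3% of the tested protein-coding genes of at least 6 kb. The median SD of the members was 0.23 in MIR21-KO and 0.10 in Ctrl, beside 0.21 and 0.13 over all tested genes. MIR21-KO replicate 3 exceeded replicate 1 in 14 of the 21, and by 1.16 in ITGAV. The median difference over all 21 was 0.36. The members are long, with a median of 6865 bases in the table. Of 4516 tested protein-coding genes of at least 6 kb, 71.0% were higher in replicate 3 than in replicate 1, with a median difference of 0.23, whereas over all tested genes the share was 47.6%. When the trend of each library with gene length was removed, ITGA2, ITGA4 and LAMA3 were called too, giving 8 members higher and 3 lower. Without MIR21-KO replicate 3 there were 6 higher and 5 lower, the additional calls being ITGA6, LAMA3 and LAMC1.

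**Figure D4:**
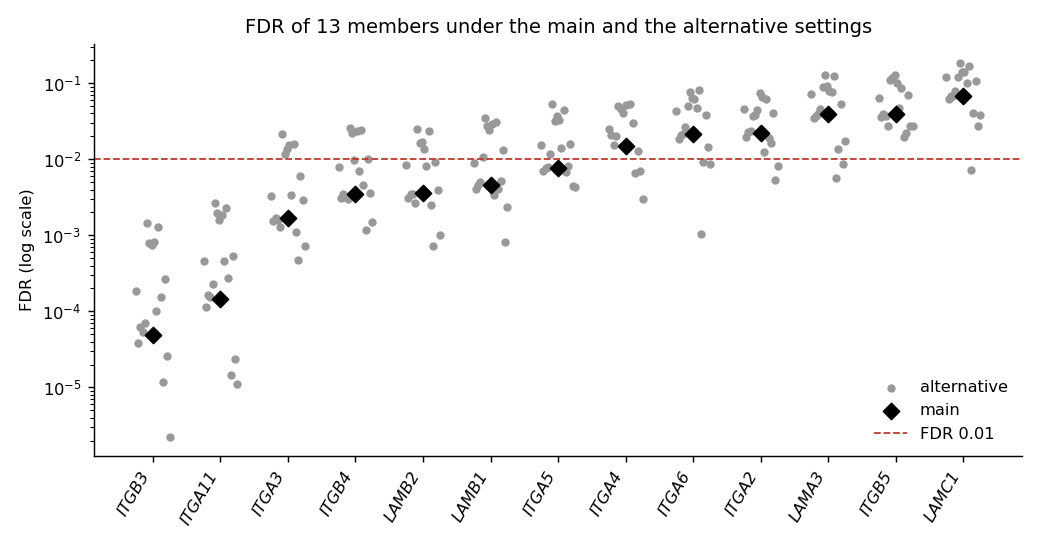
FDR (log axis) of 13 members in the main setting (black diamonds) and in 16 alternative settings (grey circles, 15 for ITGA4). They are the 13 with the smallest FDR in the main setting among the tested members plotted above. The dashed line is the threshold of 0.01. Of the members shown, ITGB3 and ITGA11 stay under the line in each setting, with highest FDRs of 0.00146 and 0.00263.

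Inside the cell, integrin tails are tied to actin by adaptors and kinases. Of 35 such genes 32 were tested, and 8 were called higher and 6 lower, with a median log2 fold change of 0.19. That is 25% and 18.8% of them, beside 7.66% and 8.38% of all tested genes and 9.1% and 10.6% of the tested protein-coding genes. This list and those that follow were chosen with earlier results of these data known, so such shares do not measure an enrichment. TNS1, a tensin that binds β tails, rose from 0.329 ± 0.0290 to 5.52 ± 1.14 FPKM (log2 fold change 3.69, FDR = 7.87e-05). Its Ctrl mean was under the limit of 0.5 FPKM, so TNS1 entered the test through its MIR21-KO values. With a pseudocount of 1 the log2 fold change of TNS1 was 2.28. Of its relatives TNS2 rose from 3.19 ± 0.246 to 4.83 ± 0.144 FPKM (0.59, FDR = 0.00584), a call kept in 9 of 16 alternatives, whereas TNS4 fell from 48.6 ± 2.91 to 24.0 ± 2.05 FPKM (-1.02, FDR = 0.00052) and TNS3 from 50.9 ± 4.93 to 28.6 ± 3.26 (-0.83, FDR = 0.00267). PTK2B, a kinase related to focal adhesion kinase, rose from 1.94 ± 0.0666 to 7.50 ± 0.316 FPKM (1.90, FDR = 6.95e-05). ZYX (0.70, FDR = 0.00202) and PARVA (0.83, FDR = 0.00272), proteins of focal adhesions, were also higher. CAV1, the coat protein of caveolae (-0.57, FDR = 0.00218), and KANK1, a talin-binding protein (-1.09, FDR = 0.00437), were lower. The 14 calls fell to 3 without Ctrl replicate 1, Ctrl replicate 3 or MIR21-KO replicate 2 and to 4 without Ctrl replicate 2; TNS1, PTK2B and TNS4 were called in each setting.

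Other parts of the basement membrane and laminin receptors outside the integrin family formed the second list. Of 25 genes 20 were tested, with 9 called higher and 1 lower (45% and 5%, beside 7.66% and 8.38% of all tested genes) and a median log2 fold change of 0.44. The 4 collagen IV chains tested all rose. COL4A1 went from 27.2 ± 2.11 to 122.8 ± 21.5 FPKM (log2 fold change 2.16, FDR = 0.000185), COL4A2 from 51.5 ± 1.25 to 128.3 ± 6.73 (1.32, FDR = 0.000108), COL4A5 from 11.0 ± 0.711 to 28.5 ± 3.56 (1.37, FDR = 0.00035) and COL4A6 from 15.2 ± 0.697 to 32.8 ± 2.49 (1.10, FDR = 0.000277). NTN4, a netrin that binds laminin γ chains, was the gene called lower, from 13.8 ± 0.572 to 8.48 ± 0.680 FPKM (-0.70, FDR = 0.00178). The 10 calls fell to 6 without Ctrl replicate 1, Ctrl replicate 2 or MIR21-KO replicate 2 and to 5 without Ctrl replicate 3, and the 4 collagen IV genes were called in each setting.

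The third list held proteins that integrins bind. Of 25 genes 14 were tested, with 9 called higher and 1 lower (64.3% and 7.14%, beside 7.66% and 8.38% of all tested genes) and a median log2 fold change of 0.99. Since the list was chosen with earlier results of these data known, these shares do not measure an enrichment. FN1, fibronectin, the ligand of α5β1 and αVβ3, rose from 22.8, 17.02 and 20.6 FPKM in Ctrl to 163.8, 187.7 and 235.5 in MIR21-KO, a log2 fold change of 3.27 that passed (FDR = 7.68e-05). TGFBI, a matrix protein that integrins bind, rose from 207.8 ± 5.50 to 876.2 ± 61.6 FPKM (2.07, FDR = 4.88e-05), LTBP1, which holds latent TGFβ in the matrix, from 4.88 ± 0.455 to 26.3 ± 2.85 (2.41, FDR = 5.72e-05), and TNC, tenascin C, from 1.39 ± 0.0752 to 6.02 ± 0.610 (2.03, FDR = 0.000125). CDH1, E-cadherin, the ligand of αEβ7 and also among the epithelial markers, was the gene called lower, from 8.18 ± 0.584 to 2.86 ± 0.148 FPKM.

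**Figure D5:**
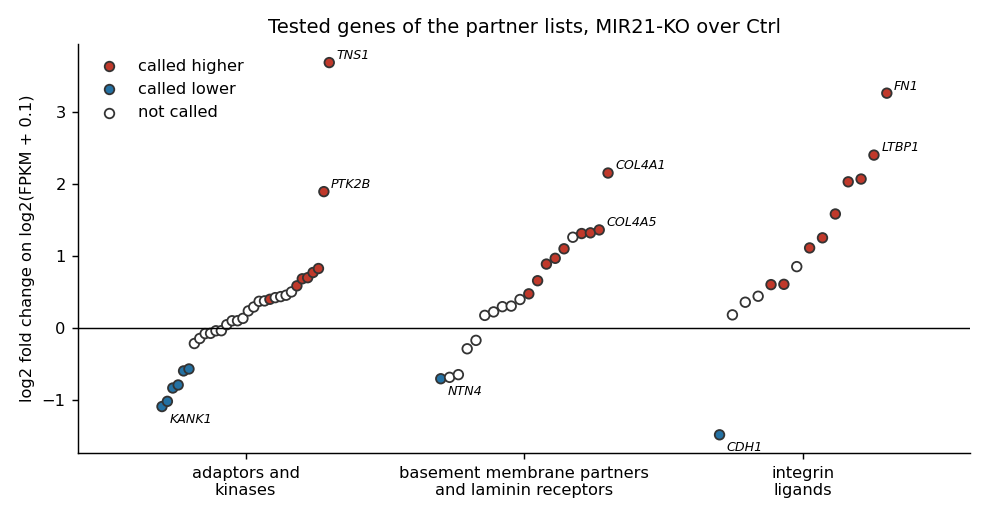
Log2 fold changes, MIR21-KO over Ctrl on log2(FPKM + 0.1), of the tested genes of 3 lists (32 adaptors and kinases, 20 basement membrane partners and laminin receptors, 14 ligands), each ordered by value; red and blue points were called higher and lower at an FDR under 0.01. TNS1, COL4A1 and FN1 lead the lists, and 1 ligand, CDH1, lies below 0.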

How the data were processed

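PolyA RNA-seq of 3 Ctrl and 3 MIR21-KO libraries of A549 cells was analysed; groups and replicate numbers came from the sample titles. Per the labels, libraries were strand-specific and sequenced on an Illumina HiSeq instrument. The submitters' processing notes name cutadapt 1.14, HISAT2 2.1.0, SAMtools 1.5, featureCounts 1.5.3, edgeR 3.18.1 and hg38; the annotation, the strand setting and the treatment of reads shared between genes are not given in the sources used here. The authors deposited FPKM for 58174 genes, with their own fold changes, p-values and FDRs, which were not used. FPKM times gene length came out as whole multiples of 1 read for 100% of values (tolerance 0.02), which gave the read totals. Library sizes worked back from these FPKM came to 0.950 to 1.03 times the totals, and the study's methods name TMM normalization. Limits from read numbers concern counting error alone.

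The 16006 genes whose mean reached 0.5 FPKM entered a two-sided test in limma (version 3.58.1, under R 4.3.3), on log2(FPKM + 0.1), with trended and robust eBayes moderation and no covariate, with Benjamini-Hochberg adjustment over all of them and calls at an FDR under 0.01. A count model was not the main test because the unit is FPKM; voom in limma was run on the recovered reads as an alternative, with total reads as library sizes. Further alternatives were the omission of each library in turn, a replicate block, no filter or a minimum mean of 1 FPKM, a pseudocount of 1, scaling by median ratios or by total reads, no trend or robust fitting, removal of each library's lowess trend on gene length (span 0.3), an FDR of 0.05 and protein-coding genes only. The labels give no batch. Sums and shares over subunit classes were described without a test. The values of 1 tested member, which enters the counts and sums, are not reported here.

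The members, the 3 partner lists and the markers were chosen with earlier results of these data known. Named were the called members with each library's value, the other tested members with group values, the members under the filter with read ranges, and from each partner list at most 4 called genes per direction with the smallest p; TNS2 and single markers were added after their values were seen. The ligand symbols CCN1 and CCN2 were matched by gene identifier to CYR61 and CTGF. Gene positions and 3′ UTRs came from GENCODE 29 (GRCh38) by gene identifier, with the longest annotated 3′ UTR of each gene searched on the gene's own strand for ATAAGCTA, ATAAGCT and TAAGCTA. The first of these words contains both others, and each match was counted once, under the longest word it holds. The miRNA sequence is that of RefSeq. The procedure was tested on simulated data. Plots were made in Python 3.11.15 using matplotlib 3.10.9.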

Additional observations from a re-analysis of the deposited data

How the results depend on the processing

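All 21 tested members kept their direction under every setting that gave a value for them (355 comparisons, counting an FDR of 0.05 as a setting). In 308 of these they stayed on the same side of the threshold, in 31 a call was lost and in 16 one was gained. Of 323 comparisons for the 19 other named genes, VMP1 included and TNS2 and the markers beside CDH1 left out, 295 stayed on the same side and 28 were lost. Leaving out 1 library gave 2 to 6 members called higher and 1 to 5 called lower, 3 to 14 adaptor and kinase genes, 5 to 13 basement membrane partner and laminin receptor genes, 7 to 11 ligand genes, and over all genes 388 to 1599 higher and 368 to 1801 lower. With the replicate number as a replicate block, 2 members were called higher and 1 lower, 3 adaptor and kinase genes were called, and over all genes 379 were higher and 272 lower. The labels name no shared day or culture, and whether the numbers pair the libraries is not stated. Same-numbered libraries deviated from their group means with correlations of -0.171, -0.018 and -0.017, and differently numbered ones with correlations of -0.130 to 0.155. With 3 libraries a group these values cannot settle it. Without trend and robust fitting 1 member was called lower. At an FDR under 0.05, 4 members were lower, and over all genes 2428 were higher and 2686 lower. The causes of these shifts, the smaller number of libraries in the fits that leave 1 out among them, were not tested. Median-ratio scaling and scaling by total reads moved the median log2 fold change of all genes by -0.01 and -0.03. The design has 3 libraries a group, changes of members with few reads, such as ITGAX and ITGAM, are poorly resolved at these depths, and transcript levels say nothing of protein at the cell surface.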

Other observations

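ITGB1P1 (ENSG00000269378, a processed pseudogene of ITGB1) was the one row of the table named after a member, as a pseudogene, antisense, intronic, divergent or overlapping transcript, that had a mean of at least 0.5 FPKM. It was listed at 162.0, 160.3 and 170.2 FPKM in Ctrl and 155.7, 174.9 and 194.6 in MIR21-KO, with overlapping groups and a log2 fold change of 0.09 ± 0.102 (SE, FDR = 0.553 by limma), beside 0.17 for ITGB1.

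Ranked by mean FPKM, ITGB1, ITGB5 and ITGA3 came first in that order in both groups. ITGB3 went from rank 18 of 38 in Ctrl to rank 9 in MIR21-KO. ITGB3 in MIR21-KO cells (14.9 ± 2.67 FPKM, SD, n = 3) thus stood beside LAMB2 (14.01 ± 1.27) and ITGA2 (17.2 ± 4.26), from which it did not differ beyond their spread.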
